A study of Mus musculus with 23 samples.

Results

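The cluster described here is a pair of neighbouring microRNA (miRNA) genes of the mouse, Mir143 and Mir145a, and its members are the 4 mature strands that they give: mmu-miR-143-3p, mmu-miR-143-5p, mmu-miR-145a-5p and mmu-miR-145a-3p, written below without the species prefix. They were chosen by name and by no measured value, though earlier results of these data were known. They are 4 of the 1218 mature miRNAs with a row in the count table. All 4 passed the filter on low counts, which left 386 miRNAs to test. The samples were 23 small RNA libraries from the liver of F3 male C57bl/6J mice. The labels do not say that each library is a separate mouse, so p-values measure the spread between these libraries. The study's methods name more reference and HFepa mice than there are libraries, while its metabolic measurements name 7 HFepa mice. The reference group (n = 8) came from a control lineage, bred on feed with a high-oleic sunflower oil, and received a standard low-fat diet. The HFoleic group (n = 8) came from the same control lineage and received a high-fat, high-sucrose diet. The HFepa group (n = 7) came from an omega 3 lineage, bred on feed with a fish oil rich in eicosapentaenoic acid (EPA), and received the high-fat, high-sucrose diet. HFoleic vs. reference thus compares diets within a lineage, HFepa vs. HFoleic compares lineages on 1 diet, and HFepa vs. reference differs in both.

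Each miRNA gene is transcribed into a precursor that folds into a hairpin. Cleavage of the hairpin leaves a strand from its 5′ arm and another from its 3′ arm, of which the more abundant is here called the major strand. The miR-143 and miR-145 hairpins are thought to be cut from a common transcript, the long non-coding RNA Carmn. The cluster is best known from smooth muscle and other mesenchymal cells, where it favours the contractile state, and miR-143 has been linked to impaired insulin action in the liver of obese mice. In whole liver, vessel walls, stellate cells and portal fibroblasts are therefore possible sources beside hepatocytes, and fewer cells of a type cannot be told apart from less RNA per cell.

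On GRCm38, Mir145a lies at chr18:61647825-61647894 and Mir143 at chr18:61649196-61649258, both on the minus strand, with 1301 bases between them. Both are within the span of Carmn in RefSeq (chr18:61645878-61665538), whereas in GENCODE neither overlaps another gene. The related miR-145b comes from a separate hairpin at chr18:69022199-69022273. It had 64 counts in the 23 libraries together, from 1 to 7 in each, and was not tested.

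The libraries held from 3725432 to 8139344 counts, with the HFepa libraries, from 3725432 to 4947990, below all reference libraries, from 5242218 to 8139344. Library numbers in the sample titles run from 1 to 8 in reference, from 16 to 22 in HFepa, and are 9 to 15 and 23 in HFoleic. Nothing in the labels says what the number stands for. A boundary between libraries 11 and 12 was known from earlier results of these data, and values are given below within each set. HFepa vs. reference lies wholly across that boundary, so the library number and the group cannot be told apart there. Hepatocyte markers were abundant in all groups, as the tissue label says: miR-192-5p averaged 205181 CPM (counts scaled to library size with TMM factors). Reference library 3 stood apart, with the lowest summed level of the 5 hepatocyte markers (187956 CPM) and the highest of the 6 markers of stellate cells and fibroblasts (3154 CPM, against at most 1189 CPM in any other library). It held the highest reference value for 120 of the 386 tested miRNAs (31.1%, against 7.25% to 14.2% for the other reference libraries). Reference library 4 had the highest sum over the striated muscle list (222 CPM) and reference library 5 the highest over the pancreas list (2021 CPM). In the reference group a single miRNA made up most of each sum. miR-133a-3p averaged 30.41 CPM of a striated muscle sum of 32.96 CPM, and miR-375-3p 272.73 CPM of a pancreas sum of 273.26 CPM.

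The 4 strands differed widely in level. miR-143-3p was the 9th most abundant miRNA of the table and held 2.59% of all counts. miR-145a-5p ranked 99th, miR-145a-3p 128th and miR-143-5p 361st by mean CPM. Within the cluster, miR-143-3p held 98.8% ± 0.112 of the counts in the reference livers (SD, n = 8). The ratio of miR-143-3p to miR-145a-5p had a geometric mean of 113 in reference, 112 in HFoleic and 134 in HFepa. Read counts of small RNA also depend on how well each sequence is ligated, so these ratios describe reads and not molecules. The strand miR-143-5p had from 3 to 28 counts per library and 260 in all, and its values carry a large counting error.

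miR-143-3p, the major strand of its hairpin, differed between no groups past the test. In reference it ranged from 22573 to 39909 CPM with a median of 25270 CPM, in HFoleic from 19185 to 27717 CPM with a median of 24718 CPM, and in HFepa from 22660 to 29462 CPM with a median of 24994 CPM. The groups overlapped, and the highest value, 39909 CPM, was that of reference library 3. The log2 fold change was -0.17 (SE 0.10) in HFoleic vs. reference, -0.11 (SE 0.11) in HFepa vs. reference and 0.06 (SE 0.11) in HFepa vs. HFoleic. None passed the test (edgeR's quasi-likelihood test, Benjamini-Hochberg adjusted p = 0.298, 0.569 and 0.968). Without reference library 3 the first 2 values were -0.07 and -0.02.

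miR-145a-5p, the major strand of its hairpin and the one studied in smooth muscle, had its lowest mean in HFepa. It ranged from 186 to 350 CPM in reference (median 226 CPM), from 172 to 282 CPM in HFoleic (median 220 CPM) and from 144.7 to 251 CPM in HFepa (median 194 CPM). The groups overlapped, and the highest library was again reference library 3. The log2 fold change in HFepa vs. reference was -0.33 (SE 0.14), which did not pass the test (edgeR adjusted p = 0.0998), and was -0.23 without reference library 3. In HFoleic vs. reference it was -0.13 (SE 0.13, edgeR adjusted p = 0.523) and in HFepa vs. HFoleic -0.20 (SE 0.14, edgeR adjusted p = 0.901).

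miR-145a-3p, the minor strand of the same hairpin, was the member that was called. It ranged from 69.2 to 110 CPM in reference (median 79.9 CPM), from 59.2 to 179 CPM in HFoleic (median 124 CPM) and from 89.7 to 157 CPM in HFepa (median 141 CPM). HFepa and reference overlapped through reference library 3 (110 CPM). In HFepa vs. reference it rose 1.53-fold, a log2 fold change of 0.61 (SE 0.20, edgeR adjusted p = 0.0396). Called here means past 0.25 in absolute log2 fold change with an adjusted p under 0.05. That made 1 of 4 members called, against 15.8% of all tested (5.18% higher, 10.6% lower). In HFoleic vs. reference the log2 fold change was 0.48 (SE 0.20, edgeR adjusted p = 0.116), and 0 of 4 members were called against 12.4% of all tested (4.92% higher, 7.51% lower). In HFepa vs. HFoleic it was 0.13 (SE 0.20, edgeR adjusted p = 0.968), with 0 of 4 members called and 0.0% of all tested, where 5.7% had an unadjusted p under 0.05. The call in HFepa vs. reference was lost when reference library 4, 5 or 8 or HFepa library 16, 17, 18 or 20 was left out (log2 fold change 0.55 to 0.61, edgeR adjusted p = 0.0526 to 0.0770). Of the markers of other cell types in that comparison, 0 of 6 of stellate cells and fibroblasts were called, with a median log2 fold change of -0.43 against -0.06 over all tested, and their summed level ran from 723 to 3154 CPM in reference and from 794 to 1189 CPM in HFepa. Of the endothelial markers 1 of 2, miR-126a-5p, was called higher, at a log2 fold change of 0.251 (edgeR adjusted p = 0.0416), barely past the threshold. The other strand of that hairpin had 0.12 (edgeR adjusted p = 0.210). The endothelial sum had a median of 18829 CPM in reference (13887 to 20330 CPM) and 20875 CPM in HFepa (19646 to 23671 CPM). This sum averaged 18314 CPM in HFoleic libraries 9 to 11 and 21495 CPM in HFoleic libraries 12 to 15 and 23. Called lower were 1 of 5 biliary markers, 1 of 6 leukocyte markers, and the 1 tested marker each of striated muscle and pancreas. Of the hepatocyte markers 0 of 5 were called, and of the red blood cell markers 0 of 4. The leukocyte marker was miR-150-5p, at a log2 fold change of -1.40 (edgeR adjusted p = 0.00122). It averaged 322 CPM in reference and 122 CPM in HFepa, and in HFoleic vs. reference it had -0.94 (edgeR adjusted p = 0.0174). In the reference leukocyte sum, averaging 2355 CPM, miR-142a-5p held 1260 CPM. Single reference libraries held the highest sums: library 3 for stellate, biliary and leukocyte, library 4 for striated muscle, library 5 for pancreas. Median sums in reference and HFepa were 910 and 930 CPM (stellate), 191 and 216 CPM (biliary) and 2210 and 2108 CPM (leukocyte). They were 6.13 and 4.31 CPM for striated muscle and 17.2 and 15.6 CPM for pancreas. The part of these markers in the level of miR-145a-3p was not tested.

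**Figure D1:**
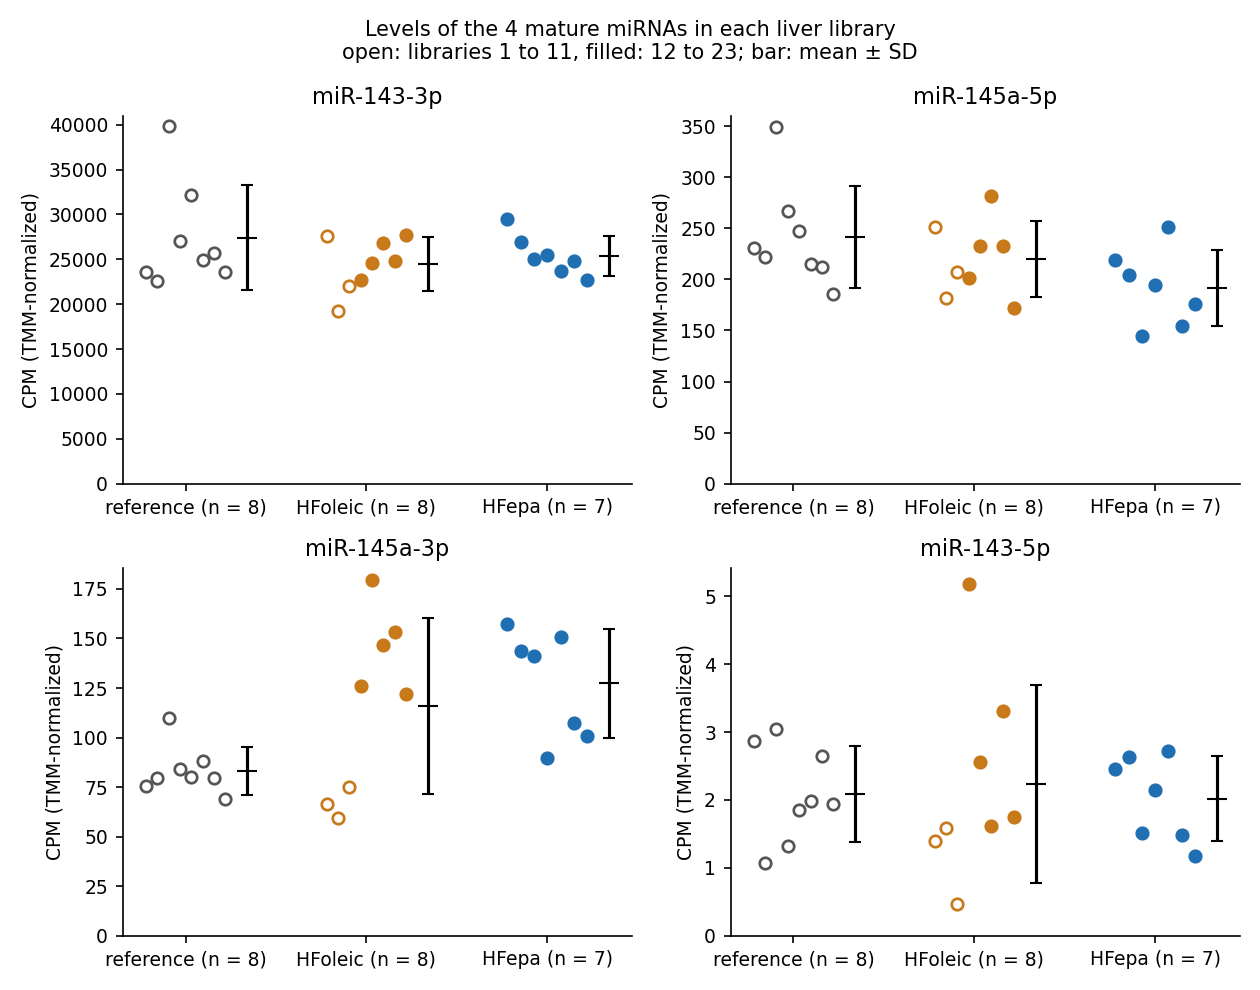
Level of each member in CPM (y axis, from 0) for each of the 23 libraries, by group (x axis), with open points for libraries 1 to 11, filled points for libraries 12 to 23, and bars for the mean ± SD. miR-145a-3p lies between 59.2 and 110 CPM in the open points and between 89.7 and 179 CPM in the filled ones.

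miR-145a-3p followed the library number within HFoleic, the group that spans the boundary. HFoleic libraries 9, 10 and 11 had 66.6, 59.2 and 75.3 CPM, and HFoleic libraries 12, 13, 14, 15 and 23 had 126, 179, 147, 153 and 122 CPM. The sets did not overlap, which was so for 18.7% of the tested miRNAs, 9.59% being higher in the later set. Reference, all numbered below 12, ran from 69.2 to 110 CPM, and HFepa, all numbered above 11, from 89.7 to 157 CPM. With a term for the library number beside the groups, miR-145a-3p was higher in libraries 12 to 23 by a log2 fold change of 1.12 (SE 0.19, edgeR adjusted p = 2.78e-04). It was 7th of 386 miRNAs by p in that contrast, where 6.74% were called and 3.89% called higher, and since the boundary came from these data the p is no independent evidence.

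With the library-number term in the fit, the sign of the miR-145a-3p fold changes turned. Only HFoleic sets that term, with 3 libraries (9 to 11) against 5 (12 to 15 and 23). In HFepa vs. reference the fit takes the same shift to hold in all groups, which was not tested. With the term, the log2 fold change of miR-145a-3p was -0.51 (SE 0.22, edgeR adjusted p = 0.723) in HFepa vs. reference and -0.31 (SE 0.17, edgeR adjusted p = 0.478) in HFoleic vs. reference. Within libraries 1 to 11, HFoleic vs. reference gave -0.30 (SE 0.13, edgeR adjusted p = 0.662), and within libraries 12 to 23, HFepa vs. HFoleic gave -0.19 (SE 0.14, edgeR adjusted p = 0.875). Among the other members, the major strands gave smaller values. For miR-143-3p the library-number term was 0.14 (SE 0.15, edgeR adjusted p = 0.726) and for miR-145a-5p 0.07 (SE 0.19, edgeR adjusted p = 0.958). miR-143-5p had 1.31 (SE 0.43, edgeR adjusted p = 0.0755), with few counts, and its log2 fold change in HFepa vs. reference then was -1.36 (SE 0.52, edgeR adjusted p = 0.723).

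**Figure D2:**
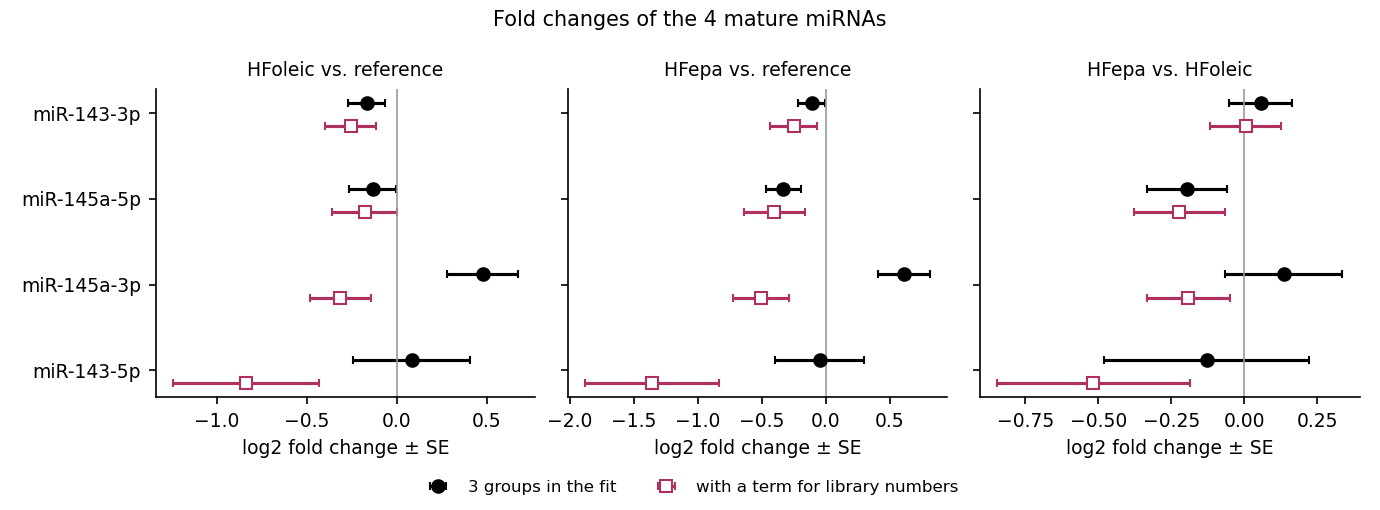
Log2 fold change (x axis, each panel with its own scale) of the 4 members (y axis) in the 3 comparisons, with bars for the SE. Filled points are from the fit with the 3 groups and open squares from the fit that adds the library-number term, and miR-145a-3p in HFepa vs. reference moves from 0.61 to -0.51.

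The ratio of the strands of a hairpin is read within a library and needs no scaling between libraries. The log2 ratio of miR-145a-5p to miR-145a-3p ranged from 1.29 to 1.67 in reference (median 1.54), from 0.38 to 1.91 in HFoleic (median 0.81) and from 0.03 to 1.11 in HFepa (median 0.52). HFepa and reference did not overlap, as in 10.0% of the 100 hairpins with both strands tested. The difference of means in HFepa vs. reference was -0.92 (two-sided exact permutation test, p = 0.000311, the smallest that 8 against 7 libraries allow, adjusted p = 0.00280 over 9 ratio tests). In HFoleic vs. reference it was -0.51 (exact permutation p = 0.0291, adjusted p = 0.131) and in HFepa vs. HFoleic -0.41 (exact permutation p = 0.123, adjusted p = 0.222). Within libraries 1 to 11, HFoleic and reference differed by 0.14 (exact permutation p = 0.279), and within libraries 12 to 23, HFepa and HFoleic by -0.02 (exact permutation p = 0.919).

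As a share of the miR-145a counts, the 3p strand made up 25.8% ± 1.89 in reference (SD, n = 8), 33.7% ± 8.56 in HFoleic (n = 8) and 39.9% ± 5.56 in HFepa (n = 7). HFoleic libraries 9 to 11 held 24.1% ± 2.91 (n = 3) and HFoleic libraries 12 to 15 and 23 held 39.5% ± 3.51 (n = 5). Over all groups, libraries 1 to 11 ranged from 20.9% to 29.0% and libraries 12 to 23 from 31.6% to 49.4%. The sets did not overlap, as in 9.0% of the hairpins, and the nearest values were 29.0% in reference library 6 (95% Wilson interval 27.2% to 31.0%) and 31.6% in HFepa library 19 (29.0% to 34.3%). The intervals cover counting error only, from 1131 to 3170 counts of both strands per library.

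**Figure D3:**
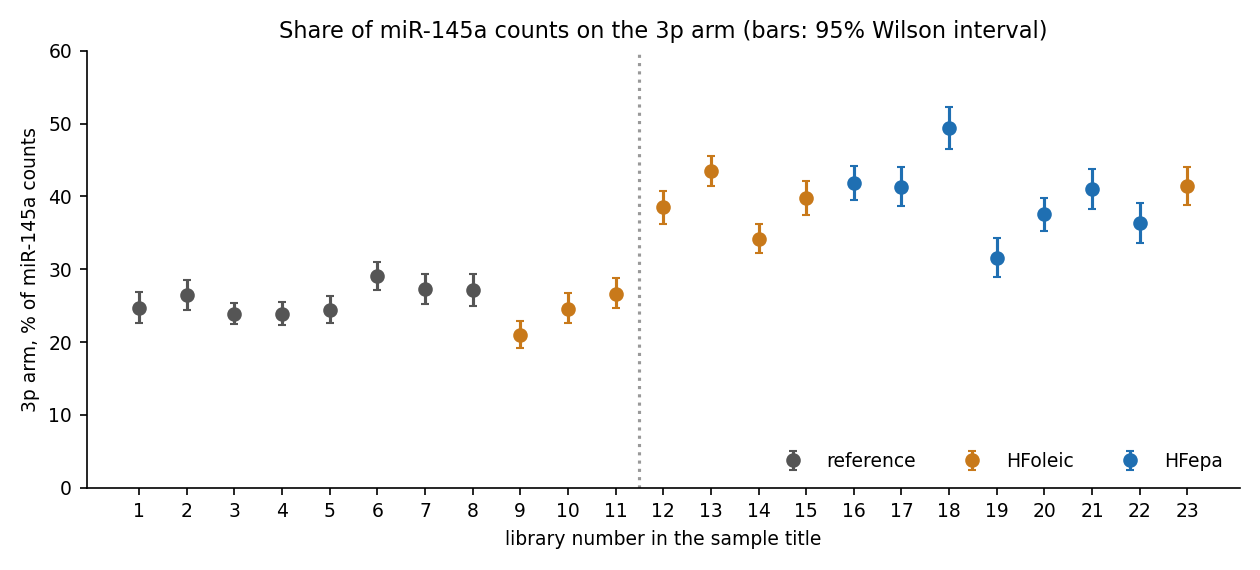
Share of miR-145a counts that fall on the 3p strand (y axis, %) by library number (x axis), coloured by group, with 95% Wilson intervals as bars and a dotted line between libraries 11 and 12. The 11 libraries to the left of the line lie between 20.9% and 29.0%, and the 12 to the right between 31.6% and 49.4%.

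Set beside the other hairpins, the shift of miR-145a towards its minor strand was among the largest in that direction. In HFepa vs. reference the log2 ratio of minor to major strand rose by 0.92, the third highest of 100 hairpins, against a median of -0.04 (quartiles -0.23 and 0.14). Between libraries 12 to 23 and 1 to 11 the difference was 0.95, the fourth highest, against a median of -0.03. The hairpins ahead of it were those of miR-212 and miR-362 in the former contrast and of miR-212, miR-221 and miR-362 in the latter. Differences the other way were larger in size, reaching -2.16 in the former and -2.47 in the latter. The miR-143 hairpin gave 0.11 in HFepa vs. reference, where its log2 ratio of 3p to 5p strand was 13.6 ± 0.458 in reference (SD, n = 8) and 13.5 ± 0.368 in HFepa (n = 7), a difference that did not pass the test (exact permutation p = 0.609, adjusted p = 0.913).

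**Figure D4:**
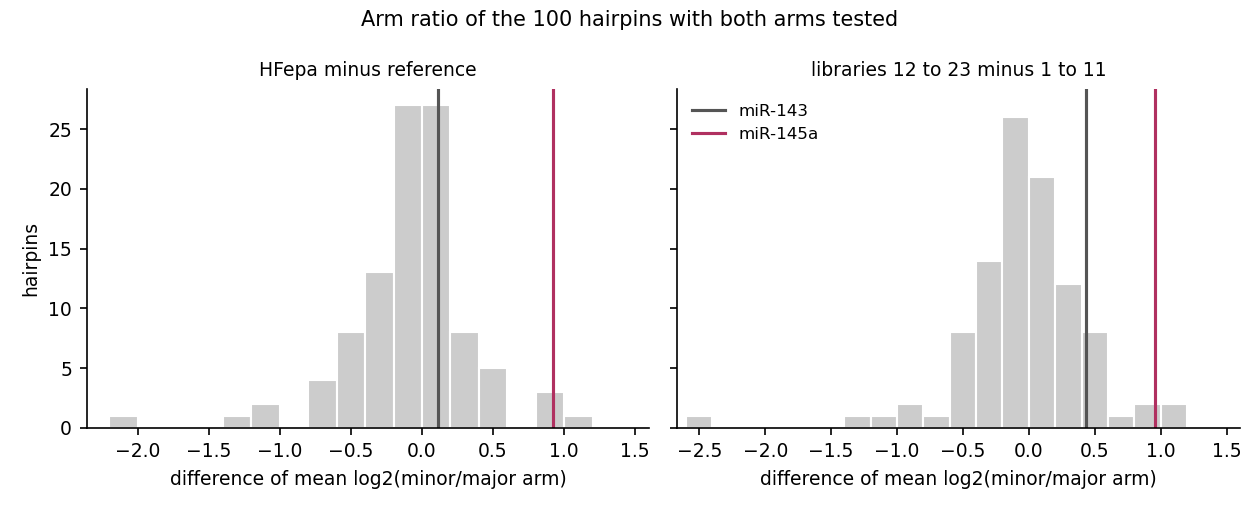
Number of hairpins (y axis) by the difference in the mean log2 ratio of minor to major strand (x axis), for HFepa minus reference and for libraries 12 to 23 minus 1 to 11, over 100 hairpins. Vertical lines mark miR-145a at 0.92 and 0.95 and miR-143 at 0.11 and 0.44.

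Between the hairpins, the log2 ratio of miR-143-3p to miR-145a-5p was 6.83 ± 0.146 in reference (SD, n = 8), 6.80 ± 0.225 in HFoleic (n = 8) and 7.07 ± 0.279 in HFepa (n = 7). The groups overlapped. The difference was 0.24 in HFepa vs. reference (exact permutation p = 0.0531, adjusted p = 0.138), 0.26 in HFepa vs. HFoleic (exact permutation p = 0.0612, adjusted p = 0.138) and -0.02 in HFoleic vs. reference (exact permutation p = 0.829, adjusted p = 0.932). Single libraries decided the call. Without HFepa library 20 the adjusted p was 0.00599 and 0.04995 in the first 2 comparisons (exact permutation test), and without HFoleic library 23 it was 0.0262 in HFepa vs. HFoleic.

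Across libraries, the major strands of both hairpins were correlated in libraries 1 to 11. Pearson's r of their log2 CPM was 0.89 there (Spearman's rho 0.84, permutation p = 0.000390 and 0.00236, adjusted over 22 relations to 0.00172 and 0.0173), and 0.65 without the 2 libraries farthest from the median. In libraries 12 to 23 r was 0.13 (rho 0.00, permutation p = 0.695 and 1.0). Over the 23 libraries r was 0.57 (rho 0.39, permutation p = 0.00631 and 0.0669, adjusted to 0.0198 and 0.164), and it fell to 0.28 without the 2 farthest libraries, so the pooled relation rested on those. miR-145a-5p and miR-145a-3p are strands of a single hairpin, and their r was 0.77 in libraries 1 to 11 (rho 0.61, permutation p = 0.00823 and 0.0513, adjusted to 0.0201 and 0.113; 0.20 without the 2 farthest) and 0.54 in libraries 12 to 23 (rho 0.71, permutation p = 0.0713 and 0.0117, adjusted to 0.392 and 0.117).

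**Figure D5:**
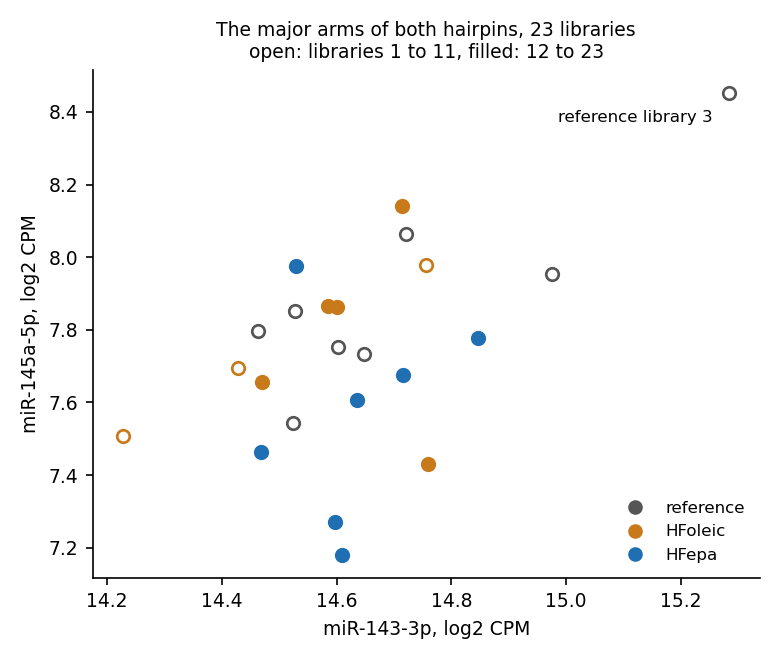
Log2 CPM of miR-145a-5p (y axis) against that of miR-143-3p (x axis) in the 23 libraries, coloured by group, with open points for libraries 1 to 11 and filled points for libraries 12 to 23. Reference library 3 lies at the upper right, and r is 0.89 in the open points and 0.13 in the filled ones.

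Of the 8 marker lists, some moved with the major strands in libraries 1 to 11 and others did not. There miR-143-3p had r = 0.87 with the summed stellate cell and fibroblast markers (rho 0.79, permutation p = 0.000270 and 0.00561, adjusted to 0.00149 and 0.0247; 0.70 without the 2 farthest) and r = -0.90 with the hepatocyte markers (rho -0.95, permutation p = 5e-05 and 6e-05, adjusted to 0.00110 and 0.000660; -0.84 without the 2 farthest). For miR-145a-5p the values were 0.89 with the former (rho 0.81, permutation p = 0.000170 and 0.00402, adjusted to 0.00125 and 0.0221; 0.74 without the 2 farthest) and -0.91 with the latter (rho -0.94, permutation p = 0.000100 and 3e-05, adjusted to 0.00110 and 0.000660; -0.82 without the 2 farthest). CPM values of a library share a total, of which the hepatocyte list held a large part (mean 313389 CPM in libraries 1 to 11). The part of this shared total in the negative r was not tested. Relations with the major strands were not particular to these lists. For miR-143-3p, r was 0.78 with the biliary list and 0.75 with the leukocyte list (permutation p = 0.0118 and 0.00741, adjusted to 0.0237 and 0.0201; rho 0.66 and 0.49, adjusted p = 0.0745 and 0.203), and -0.74 with the endothelial list (permutation p = 0.0183, adjusted to 0.0335; rho -0.25, adjusted p = 0.573). For miR-145a-5p, r was 0.84 with both the biliary and the leukocyte list (permutation p = 0.00414 and 0.00169, adjusted to 0.0130 and 0.00620; rho 0.56 and 0.68, adjusted p = 0.139 and 0.0686) and -0.64 with the endothelial list (permutation p = 0.0549, adjusted to 0.0928; rho -0.11, adjusted p = 0.791). Without the 2 farthest libraries these 6 values of r lay between -0.45 and 0.61. With the striated muscle, pancreas and red blood cell lists r lay between -0.22 and 0.48 for both strands, and none of these r passed the adjustment (permutation test). By rank, miR-145a-5p with the striated muscle list did (rho 0.75, permutation p = 0.00983, adjusted to 0.0360).

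In libraries 12 to 23, miR-143-3p had r = 0.05 with the stellate cell and fibroblast list and 0.13 with the hepatocyte list (rho 0.11 and 0.01, permutation p = 0.878 and 0.681). For miR-145a-5p the values there were 0.55 and 0.07 (rho 0.54 and 0.03, permutation p = 0.0596 and 0.828, adjusted to 0.392 and 0.878). Its r was 0.78 with the biliary list and -0.67 with the leukocyte list (rho 0.69 and -0.73, permutation p of r = 0.00289 and 0.0182, adjusted to 0.0636 and 0.200), the latter opposite in sign to that in libraries 1 to 11. None of the relations with marker lists in libraries 12 to 23 passed the adjustment, and the difference between the sets of libraries was not tested. The part of cell composition in the levels of the members was not tested.

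The tested miRNAs most like each member were found by Pearson's r of log2 CPM over the 23 libraries, which share depth and scaling. For miR-143-3p, 4 of the 5 most alike were miR-181 strands, which fall into a pair of seed groups. Their RefSeq mature sequences (GRCm38.p6) are shown because of that, 5′ to 3′, with the seed (bases 2 to 8) in capitals. miR-181c-5p (r = 0.85) lies at chr8:84178924-84178945, miR-181d-5p (r = 0.78) at chr8:84178759-84178781, miR-181c-3p (r = 0.79) at chr8:84178885-84178906 and miR-181a-1-3p (r = 0.84) at chr1:137966508-137966529.
miR-181c-5p: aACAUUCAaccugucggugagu
miR-181d-5p: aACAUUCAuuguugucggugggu
miR-181c-3p: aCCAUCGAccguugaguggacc
miR-181a-1-3p: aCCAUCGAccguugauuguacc
The 5p strands share the seed ACAUUCA and the 3p strands CCAUCGA. In libraries 12 to 23 alone these 4 had r between -0.18 and 0.45 with miR-143-3p, against 0.90 to 0.93 in libraries 1 to 11. The fifth was miR-27a-3p (r = 0.80).

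For miR-145a-5p the most alike were miR-140-5p (r = 0.77), miR-872-3p (r = 0.75), miR-342-3p (r = 0.74), miR-23a-3p (r = 0.74) and miR-497a-5p (r = 0.72), and here r stayed between 0.53 and 0.81 within libraries 12 to 23.

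miR-145a-3p was added to this search after its values were seen. Its most alike were miR-100-5p (r = 0.94), miR-125b-5p (r = 0.93), miR-501-3p (r = 0.91), miR-99b-5p (r = 0.91) and miR-99a-5p (r = 0.89). Of these, 3 are of the miR-99 and miR-100 family, shown because they share the seed ACCCGUA. They lie at chr9:41531437-41531458 (miR-100-5p), chr17:17830194-17830215 (miR-99b-5p) and chr16:77598940-77598961 (miR-99a-5p).
miR-100-5p: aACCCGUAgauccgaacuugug
miR-99b-5p: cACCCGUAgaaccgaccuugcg
miR-99a-5p: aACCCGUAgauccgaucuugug
Within libraries 12 to 23 the 5 had r between 0.72 and 0.86 with miR-145a-3p, and within libraries 1 to 11 between -0.36 (miR-99a-5p) and 0.78 (miR-100-5p). Their log2 fold changes ran from 0.96 (miR-99a-5p) to 2.79 (miR-501-3p) in HFepa vs. reference (edgeR adjusted p = 0.00122 to 0.00877). Those in HFoleic vs. reference ran from 0.87 (miR-125b-5p) to 2.62 (miR-501-3p, edgeR adjusted p = 0.00386 to 0.0249). The r over the 23 libraries takes in such differences between groups.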

How the data were processed

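Small RNA was sequenced from liver with the TruSeq Small RNA kit, and the sequencer's output was converted with bcl2fastq 2.17.1.14 per the labels. As the study's methods state, the authors removed adapters with FASTX-Toolkit, aligned reads with Bowtie in ncPRO-seq and annotated them against miRBase. They deposited raw read counts per mature miRNA, which were analysed here. They also deposited each count divided by the library's size factor (unit: signal), used to check that the factor is constant. The remaining 12 columns (group means, and what the authors' own comparisons gave as fold changes and p-values) were not used. The processing notes name mm10, the methods GRCm38.p6 and mm9; coordinates and sequences come from RefSeq and GENCODE M21 on GRCm38, and 14 of 15 alike miRNAs matched a sequence.

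Counts of 23 libraries were filtered with filterByExpr, scaled by TMM and tested by edgeR 4.0.16 (R 4.3.3) in a quasi-likelihood fit of the 3 groups, with Benjamini-Hochberg adjustment over 386 miRNAs. The threshold for a call is given with the results. Log2 ratios used counts plus 1 and exact permutation tests over all relabellings of the libraries. That enumeration was checked against scipy 1.17.1 on random draws. Correlations used log2 CPM (prior count 2) and 100000 permutations. The fits were tested on simulated data. Between libraries of a group, the lowest chi-square per degree of freedom was 33.7 and none was treated as a repeat. The alternatives were DESeq2 1.42.0, limma 3.58.1 after quantile normalization or voom, other scalings and filters, and subsets of libraries.

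The members, marker lists and the library-number boundary were chosen with earlier results of these data known. Named miRNAs were the members, miR-145b, the 5 most alike to miR-143-3p and to miR-145a-5p, and the highest of each marker list. The leukocyte marker miR-150-5p, the 5 most alike to miR-145a-3p and the hairpins of miR-212, miR-221 and miR-362 were named after their values were seen. A rule on miRNAs that share a member's seed was not applied. Those lists were led by miR-192-5p (hepatocytes), miR-199a-3p (stellate cells and fibroblasts), miR-126a-5p (endothelium), miR-133a-3p (striated muscle), miR-375-3p (pancreas), miR-200b-3p (biliary epithelium), miR-142a-5p (leukocytes) and miR-486a-5p (red blood cells).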

Additional observations from a re-analysis of the deposited data

Results flagged for a closer look

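Values of the members and their ratios were screened for a library far from the others of its group, over 21 sets of values, of which chance alone would mark about 1 in 20. In reference, library 3 had the highest miR-145a-3p, at 110 CPM, where the other 7 libraries reached at most 88.2 CPM. Library 3 held the highest reference value for 31.1% of all tested miRNAs. The same library had the highest miR-143-3p, 39909 CPM, and the highest summed stellate cell and fibroblast markers, 3154 CPM; the part of the latter was not tested. In HFoleic, library 23 had the highest log2 ratio of miR-143-3p to miR-145a-5p, 7.33, where the median of the group was 6.74.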

How the results depend on the processing

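miR-145a-3p in HFepa vs. reference was called in 7 of 11 alternatives and kept its direction in 10. It was no longer called with library size in place of TMM factors (log2 fold change 0.53, edgeR adjusted p = 0.0971), with no filter on low counts (0.60, adjusted p = 0.0857) or without reference libraries 4 and 5 together (0.61, adjusted p = 0.101), and turned to -0.51 with the library-number term. Leaving out 1 library gave 0.55 to 0.69. Its other comparisons turned to -0.31 (term) and -0.30 (libraries 1 to 11) in HFoleic vs. reference, and to -0.19 (term) and -0.19 (libraries 12 to 23) in HFepa vs. HFoleic, with ranges of 0.37 to 0.61 and 0.032 to 0.27 over left-out libraries; without HFoleic library 9 or 10 the former was called, at 0.56 and 0.61. The cause was not tested.

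miR-143-3p turned to 0.030 in HFepa vs. reference with limma-voom, and over left-out libraries gave -0.20 to -0.068 for HFoleic against reference, -0.15 to -0.015 for HFepa against reference and 0.0049 to 0.11 for HFepa against HFoleic. In the same order, miR-145a-5p gave -0.20 to -0.036, -0.40 to -0.23 and -0.27 to -0.12. miR-143-5p had no stable direction. In HFoleic vs. reference it turned to -0.086 (limma-voom), -0.84 (term), -0.83 (libraries 1 to 11) and -0.039 (without reference libraries 4 and 5), in HFepa vs. reference to 0.037 (quantile normalization), and in HFepa vs. HFoleic to 0.017 (quantile normalization) and 0.059 (limma-voom), with ranges over left-out libraries of -0.22 to 0.25, -0.14 to 0.067 and -0.29 to 0.18. With at least 10 counts in every library it could not be tested.

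The log2 ratio of miR-145a-5p to miR-145a-3p ranged from -1.01 to -0.83 in HFepa vs. reference over left-out libraries (the groups do not overlap, so each such fit had to give the smallest p its size allows), and gave -0.64 to -0.42 in HFoleic vs. reference, passing without HFoleic library 9, and -0.50 to -0.28 in HFepa vs. HFoleic; it turned to 0.14 in HFoleic vs. reference within libraries 1 to 11. The ratio of miR-143-3p to miR-143-5p turned to 0.59 there, and to 0.39 in HFepa vs. HFoleic within libraries 12 to 23, with ranges of -0.32 to 0.12, -0.21 to -0.022 and -0.23 to 0.21. The ratio of miR-143-3p to miR-145a-5p ranged from -0.099 to 0.0088, 0.18 to 0.33 and 0.20 to 0.35. No paired analysis was possible because the labels give the groups no shared replicate numbers.

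Over all miRNAs, 48 were called in HFoleic vs. reference and 61 in HFepa vs. reference. DESeq2 called 25 in the former, no filter 29, limma-voom 31 and the fit of 2 groups 7. Quantile normalization called 10 and 24, the fit without reference libraries 4 and 5 called 6 and 30, and the library-number term 1 and 0. The fit of 2 groups called 40 in HFepa vs. reference. In HFepa vs. HFoleic edgeR and DESeq2 called 0 and limma-voom 1 with all libraries, and edgeR called 1 without HFepa library 19. Libraries 1 to 11 alone called 0. Depth limits miR-143-5p and miR-145b most.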
